A study of Mus musculus with 2 samples.

Results

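The 4 genes described here, *Actb*, *Gapdh*, *Eef1a1* and *Hsp90ab1*, are housekeeping genes, that is, genes that are active in nearly every cell and often serve as references. They were taken by name, with earlier results of these data known but with no measured value in the rule, and are 4 genes among 10129816 bins of 250 bp over which KDM2A binding was tested. KDM2A tags, meaning aligned sequence reads placed at a position and strand, were counted around the start site of each gene in mouse embryonic stem cells (ESCs). The coordinates are those of the mm9 genome build. The start sites, given to the nearest 100 bp, lie at position 143668400 of chromosome 5 for *Actb*, 125115600 of chromosome 6 for *Gapdh*, 78329500 of chromosome 9 for *Eef1a1* and 45710200 of chromosome 17 for *Hsp90ab1*. All 4 genes are on the minus strand, so that downstream, into the gene, means lower coordinates. Both libraries came from V6.5 ESCs, a line from a cross of C57BL/6 and 129/sv mice that the strain label gives as C57BL/6. The cells had been moved off fibroblast feeder cells before use. The KDM2A ChIP library was made with a KDM2A-specific antibody from cells fixed with EGS and then formaldehyde, and for the input library the antibody label reads none. There was 1 library of each and there were 0 replicates, so that every test below compares the reads of these 2 libraries and not KDM2A binding between cultures, and intervals cover counting error only. Both are DNA libraries and hold no expression level, so the ESC label could not be checked against marker genes.

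KDM2A removes methyl groups from lysine 36 of histone H3 and carries a ZF-CxxC domain, a zinc finger that binds CpG dinucleotides that are not methylated. Such CpGs are concentrated in CpG islands, which cover the promoters of most housekeeping genes. *Actb* encodes cytoplasmic beta-actin, *Gapdh* an enzyme of glycolysis, *Eef1a1* the elongation factor that brings aminoacyl-tRNA to the ribosome, and *Hsp90ab1* the constitutive form of the HSP90 chaperone. The 4 genes share constant activity rather than a pathway. The study sequenced KDM2A-bound DNA to learn where in the genome the protein sits, and the comparison of ChIP with input around these starts asks how its tags were arranged at promoters of constantly active genes.

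The libraries held 10042076 KDM2A ChIP tags and 9760426 input tags, or 0.991 and 0.964 tags per bin. Copies beyond the first tag on a strand at the same position made up 4.75% of ChIP tags but 20.4% of input tags. Per bin, chromosomes 5, 9 and 17 held 1.02 to 1.09 times the input tags of the median autosome, while chromosome 6, which carries *Gapdh*, held 0.842 times the input tags and 0.746 times the ChIP tags.

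Promoter sequence is shown for the genes that could be matched in the RefSeq promoter table, *Gapdh* and *Eef1a1*, because CpG dinucleotides are what the ZF-CxxC domain reads. The windows are the 250 bases before the annotated start in build GRCm38.p6, on the minus strand of chr6:125165774-125166023 and of chr9:78481725-78481974. They are written 5′ to 3′ with each CpG in capitals. That build is not the one of the tag files, so the windows were not laid over the tags base by base.
Gapdh: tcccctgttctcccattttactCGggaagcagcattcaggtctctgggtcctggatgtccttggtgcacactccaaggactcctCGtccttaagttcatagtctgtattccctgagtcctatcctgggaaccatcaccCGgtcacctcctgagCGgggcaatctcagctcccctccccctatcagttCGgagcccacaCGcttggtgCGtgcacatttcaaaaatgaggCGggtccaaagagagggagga
Eef1a1: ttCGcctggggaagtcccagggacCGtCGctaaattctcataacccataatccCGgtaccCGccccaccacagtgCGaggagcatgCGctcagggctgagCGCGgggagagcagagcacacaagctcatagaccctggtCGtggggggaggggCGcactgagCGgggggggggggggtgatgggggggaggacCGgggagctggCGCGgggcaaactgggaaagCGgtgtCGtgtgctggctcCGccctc

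The *Gapdh* window held 8 CpGs at a GC content of 55.6%, and the *Eef1a1* window held 18 CpGs at 68.0%. Over 32851 windows of the same length in the table, the median was 6 CpGs and 52.4% GC. At least 8 CpGs were found in 43% of these windows, and at least 18 in 21.7%. The ratio of observed to expected CpGs was 0.42 for *Gapdh* and 0.65 for *Eef1a1*, with a median of 0.37. Of the motifs searched on both strands, GGGCGG (the GC box, which itself contains a CpG) lay on the opposite strand of *Eef1a1* at -191 to -186 and at -8 to -3 from the start, and was present in 32.7% of all windows. TATAA and CCAAT, present in 22.8% and 33.8% of all windows, were in neither sequence, which says only that these letters are not in these windows.

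KDM2A ChIP tags were concentrated at all 4 start sites, in nearly equal number, while input tags were not. Within 1 kb on either side, the KDM2A ChIP library held 79 tags at *Actb*, 82 at *Gapdh*, 79 at *Eef1a1* and 82 at *Hsp90ab1*. This is 9.96 to 10.3 times the genome mean, and the exact Poisson 95% interval of each count reached from 62.5 or 65.2 to 98.5 or 101.8 tags. Of 1266217 windows of 2 kb over the genome, 0.528% held at least 79 ChIP tags and 0.480% at least 82. Input tags in these windows numbered 7, 4, 10 and 7, respectively, between 0.519 and 1.30 times its genome mean. For input, 32.5% to 75.4% of the 2 kb windows of the genome held at least as many tags as the 4 genes did. ChIP tags therefore stood far above the genome at each gene, and input tags within the ordinary range.

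With input multiplied by 1.03, the ratio of total tags, the ratio of KDM2A ChIP to input within 1 kb was 11.0 at *Actb* (95% exact Clopper-Pearson interval 5.08 to 28.2, adjusted p = 3.16e-16). By the same exact test it was 19.9 at *Gapdh* (7.49 to 74.9, adjusted p = 3.85e-19). Exact tests at *Eef1a1* and *Hsp90ab1* gave 7.68 (3.96 to 16.6, adjusted p = 2.83e-14) and 11.4 (5.28 to 29.2, adjusted p = 7.84e-17). These p-values are from two-sided exact binomial tests, adjusted by Benjamini-Hochberg over the 4 genes. The value at *Gapdh* rests on 4 input tags, on a chromosome where both libraries were low. Within 2 kb of the start the ratios fell to 5.14, 8.15, 4.91 and 7.23 in the same order. Within 500 bp they were 16.8, 13.1, 7.78 and 19.4, so that *Gapdh* stood first at 1 kb and 2 kb but *Hsp90ab1* at 500 bp.

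A difference in ratio was not shown for any of the 6 pairs of genes. By two-sided Fisher exact tests on ChIP and input tags within 1 kb, adjusted p lay between 0.734 and 1. The pair farthest apart, *Gapdh* and *Eef1a1*, had an odds ratio of 2.58 with an exact interval of 0.708 to 11.7 (adjusted p = 0.734), and differences of that size were not detectable at this depth. For *Actb* and *Hsp90ab1* the odds ratio was 0.964 (0.275 to 3.38).

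Enrichment was also called bin by bin over the whole genome. Each ChIP count was set against its expected count, taken as the genome mean or, where higher, the scaled input of the 5 kb around the bin (exact Poisson test, one-sided). A bin was called at a Benjamini-Hochberg adjusted p under 0.01. Genome-wide 1.05% of bins were called, and of the 157 whole bins within 5 kb of the 4 start sites 37 were called, or 23.6%. They were 6 of 39 bins at *Actb*, 16 of 39 at *Gapdh*, 6 of 40 at *Eef1a1* and 9 of 39 at *Hsp90ab1*. With ChIP and input exchanged, 0.145% of all bins and 1 of the 157 bins were called. Counting copies of a tag once left 0.967% of all bins, and 36 of the 157, called for ChIP. Called bins within 500 bp of each other were joined into clusters, and each of the 4 start sites lay in a cluster.

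**Figure D1:**
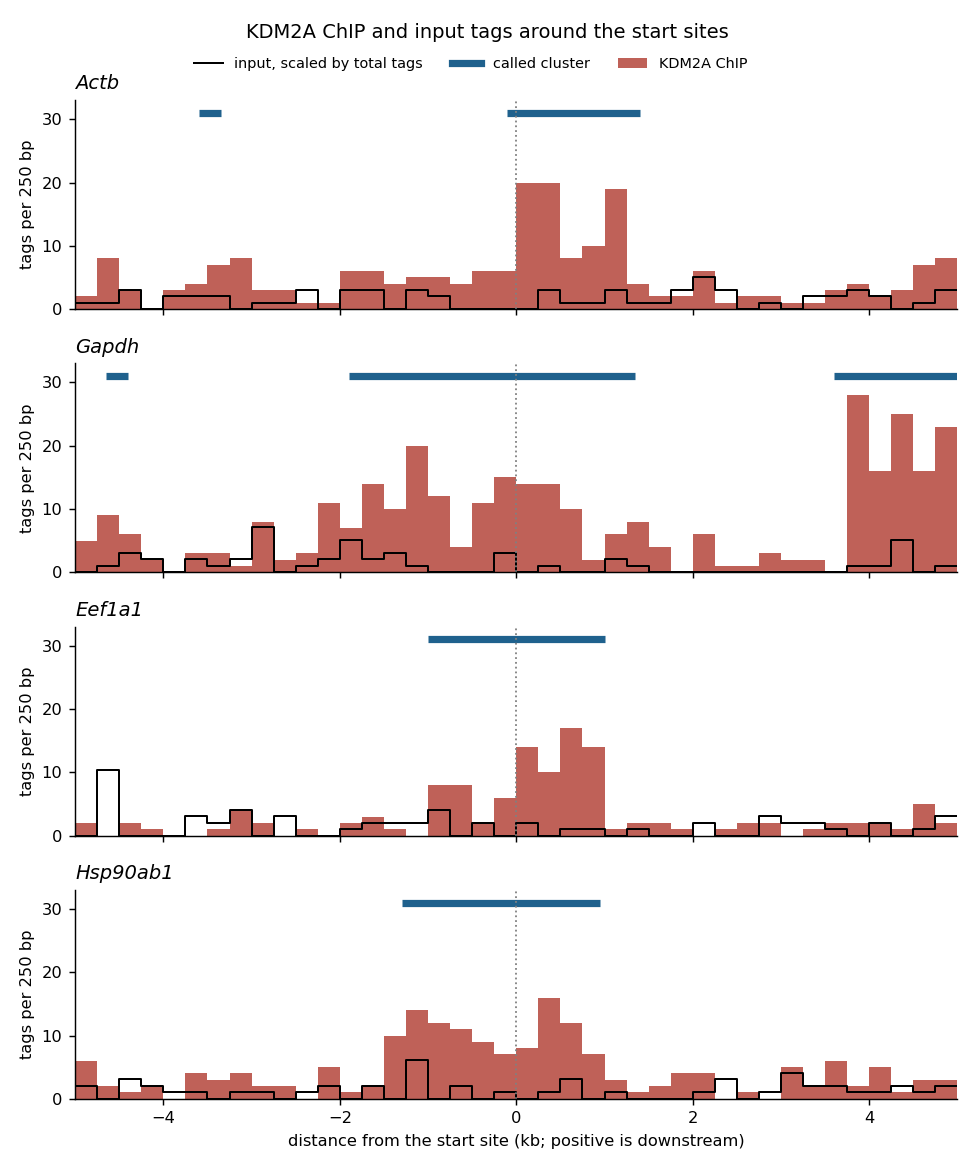
Tags per 250 bp against distance from the start site in kb (positive is downstream), for the 4 genes. Red bars are KDM2A ChIP tags, the black line is input scaled by total tags, the dotted line is the start and blue bars mark called clusters. ChIP tags rise at the Actb start to 20 per bin, lie on both sides at Gapdh and Hsp90ab1, and reach 28 in the bin 3.75 to 4 kb downstream of Gapdh.

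The arrangement of the tags is described gene by gene. Counts of single bins carry wide counting error, and apart from the comparison of sides given below, differences in shape between the genes were not tested. At *Actb*, KDM2A tags lay mostly downstream. The 4 bins upstream of the start, from the farthest inward, held 5, 4, 6 and 6 ChIP tags and 2, 0, 0 and 0 input tags. The 4 bins downstream held 20, 20, 8 and 10 ChIP tags and 0, 3, 1 and 1 input tags, and the next bin, from 1000 to 1250 bp, held 19 ChIP and 3 input tags. A first rise in the 500 bp after the start was thus followed by a dip and by another high bin, beyond which no bin out to 4500 bp had more than 6 ChIP tags. The cluster, from 143667001 to 143668500 on chromosome 5, reached only 0.1 kb upstream and 1.40 kb downstream. It held 83 ChIP and 9 input tags, with 29 ChIP tags in its highest bin (adjusted p = 9.52e-23, exact Poisson test). Bins of clusters follow a fixed grid along the chromosome and not the start site, and their counts therefore differ from those by distance.

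At *Gapdh*, the signal was broad and lay on both sides. From 1000 bp upstream to the start the bins held 12, 4, 11 and 15 ChIP tags and 0, 0, 0 and 3 input tags. From the start to 1000 bp downstream they held 14, 14, 10 and 2 ChIP tags and 0, 1, 0 and 0 input tags. Among the bins of the cluster at the start, the highest by distance lay from 1250 to 1000 bp upstream, with 20 ChIP tags and 1 input tag. The cluster, from 125114251 to 125117500 on chromosome 6, spanned 3250 bp, from 1.90 kb upstream to 1.35 kb downstream, and held 141 ChIP and 17 input tags. Its height, the number of ChIP tags in its highest bin on the grid, was 19 (adjusted p = 5.22e-15, exact Poisson test). That bin was centred 0.0255 kb upstream of the start, so the place of the highest bin depended on where the bins were laid. Of all 43759 clusters of the genome 1.28% were at least as wide.

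At *Eef1a1*, the 4 bins before the start held 8, 8, 2 and 6 ChIP tags and 4, 0, 2 and 0 input tags, and the 4 bins after it 14, 10, 17 and 14 ChIP tags and 2, 0, 1 and 1 input tags. The signal ended sharply on the downstream side, with 1 ChIP tag in the bin from 1000 to 1250 bp. The cluster, from 78328501 to 78330500 on chromosome 9, reached 1 kb to each side, with 79 ChIP and 10 input tags, and was 17 tags high (adjusted p = 9.79e-12 by the exact Poisson test). Its highest bin was centred 0.625 kb downstream.

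At *Hsp90ab1*, the tags formed a plateau with no single summit. From 1500 bp upstream inward the bins held 10, 14, 12, 11, 9 and 7 ChIP tags and 0, 6, 0, 2, 0 and 1 input tags. The 4 bins downstream held 8, 16, 12 and 7 ChIP tags and 0, 1, 3 and 0 input tags. The cluster, from 45709251 to 45711500 on chromosome 17, reached 1.30 kb upstream and 0.949 kb downstream and held 100 ChIP and 13 input tags. Its height of 15 tags was the lowest of the 4 (adjusted p = 4.42e-10, exact Poisson test). The bins next to the start held 7 and 8 ChIP tags.

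The clusters at the 4 genes were above the median of the genome in height and among its wider and larger ones. The median cluster of the genome had a height of 12 tags, 17 ChIP tags in all and a width of 250 bp, with upper quartiles of 18 tags, 47 tags and 1000 bp. At least as high as the cluster at *Actb* were 9.05% of all clusters, against 24.6% for *Gapdh*, 29.8% for *Eef1a1* and 36.5% for *Hsp90ab1*. By ChIP tags in the whole cluster the order was another, and 3.95% of all clusters held at least as many as that at *Gapdh*, 8.79% as *Hsp90ab1*, 12.3% as *Actb* and 13.3% as *Eef1a1*. Each of the 4 was at least 1500 bp wide, a width reached by 12.2% of all clusters. These shares are of all called clusters, and the 4 were not compared with clusters at other start sites.

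**Figure D2:**
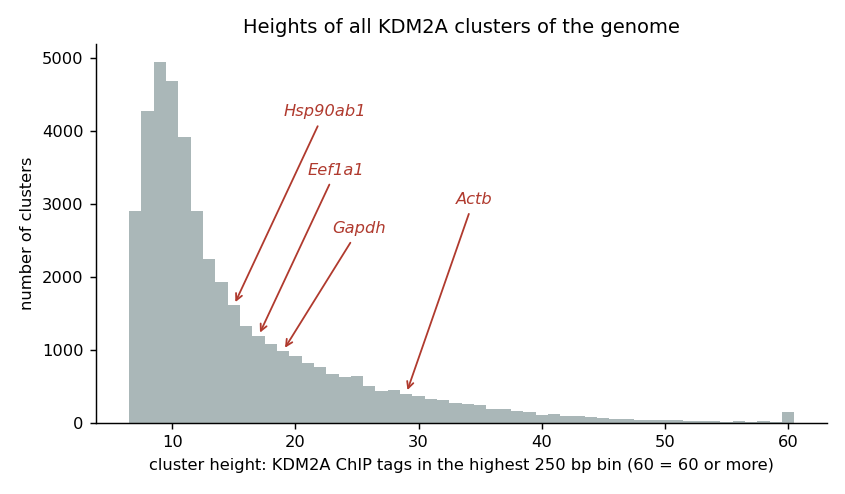
Number of KDM2A clusters of the genome (vertical axis) by height, the ChIP tags in the highest 250 bp bin (horizontal axis; 60 stands for 60 or more), with arrows at the clusters that hold the 4 start sites. The 4 heights of 15, 17, 19 and 29 tags lie above the median of 12 tags.

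The side of the start on which ChIP tags lay was compared first against input and then, in a comparison chosen after the values were seen, against an equal share. Against input, whose windows of 1 kb on one side held 1 to 6 tags, a difference between the sides was not shown at any of the 4 genes (two-sided Fisher exact test, adjusted p between 0.215 and 1, over 8 tests that include windows of 1 to 5 kb). Of the ChIP tags alone, 26.6% lay upstream at *Actb* (21 of 79, 95% exact interval 17.3% to 37.7%) and 30.4% at *Eef1a1* (24 of 79, 20.5% to 41.8%), both below an equal share (two-sided exact binomial test, adjusted p = 0.00015 and 0.00128 over the 4 genes). At *Gapdh* 51.2% lay upstream (39.9% to 62.4%) and at *Hsp90ab1* 47.6% (36.4% to 58.9%), with adjusted p = 0.912 for both by the same exact test. Input tags split into 2 upstream and 5 downstream at *Actb*, to the same side as the ChIP tags (odds ratio 0.906, exact interval 0.135 to 10.2), and into 6 and 4 at *Eef1a1* (odds ratio 0.295, 0.0560 to 1.37), so that the shares of ChIP tags alone do not show a skew beyond input. With the start moved by 100 bp either way, the share stayed between 26.0% and 32.1% at *Actb* and between 27.3% and 35.1% at *Eef1a1*. The difference between genes was tested as well, over 6 pairs. *Actb* differed from *Gapdh* by -24.6 percentage points and from *Hsp90ab1* by -21.0, and *Gapdh* from *Eef1a1* by 20.8 (two-sided Fisher exact test, adjusted p = 0.0123, 0.0203 and 0.0203). *Eef1a1* and *Hsp90ab1* differed by -17.2 points, which missed the limit (adjusted p = 0.0532, Fisher exact test). Too few input tags lay in these windows to say how many positions could be read on each side, and its part in the shares was not tested. Tags of the plus and minus strand were in balance at each gene, with 44 and 35 at *Actb*, 42 and 40 at *Gapdh*, 44 and 35 at *Eef1a1* and 41 and 41 at *Hsp90ab1* (two-sided exact binomial test, adjusted p between 0.736 and 1).

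**Figure D3:**
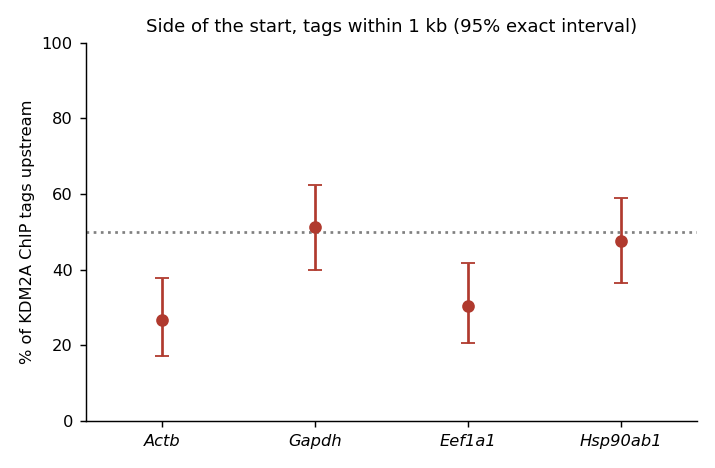
Percent of the KDM2A ChIP tags within 1 kb of the start that lay upstream (vertical axis), for the 4 genes, with 95% exact binomial intervals; the dotted line marks an equal share. The intervals of Actb and Eef1a1 lie below 50%, and those of Gapdh and Hsp90ab1 include it.

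Away from the start sites, at 1 to 5 kb, the ratio was lowest at *Eef1a1* and highest at *Gapdh* on both sides. It was close between *Actb* and *Hsp90ab1*, and differences between genes were not tested there. From 1 to 5 kb upstream of *Eef1a1* there were 19 ChIP and 29 input tags, a ratio of 0.637 (95% exact interval 0.337 to 1.18), and from 1 to 5 kb downstream 26 and 17 tags, a ratio of 1.49 (0.776 to 2.92). Of the upstream input tags, 10 lay in the single bin from 4500 to 4750 bp, which held 0 ChIP tags, so that the upstream ratio leans on that bin. At *Actb* the ratio remained above 1 on both sides, at 2.49 upstream (1.55 to 4.12) and 2.17 downstream (1.39 to 3.46). At *Hsp90ab1* it was 2.56 upstream (1.54 to 4.40) and 1.94 downstream (1.13 to 3.46). The windows downstream of *Actb* and upstream of *Hsp90ab1* include an end of the cluster at the start.

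*Gapdh* was the only one of the 4 with a second large cluster within 5 kb. From 1 to 5 kb downstream it had 141 ChIP and 11 input tags, a ratio of 12.5 (6.75 to 25.5), against 104 and 32 upstream, a ratio of 3.16 (2.11 to 4.85). Both windows include an end of the cluster at the start, which reached 1.9 kb upstream and 1.35 kb downstream. The odds ratio of upstream over downstream was 0.255 (0.110 to 0.548, adjusted p = 0.000923, two-sided Fisher exact test over 8 tests). Of the downstream tags, 108 lay from 3.75 to 5 kb, where the 5 bins held 28, 16, 25, 16 and 23 ChIP tags and 1, 1, 5, 0 and 1 input tags. They belong to a cluster from 125108751 to 125112000, 3.6 to 6.85 kb downstream, with 186 ChIP tags, 21 input tags and a height of 29 tags, more than the cluster at the *Gapdh* start itself. Without this stretch, in windows of 1 to 3.5 kb chosen after the data were seen, the difference no longer passed the test (odds ratio 0.301, 0.0544 to 1.098, adjusted p = 0.216, Fisher exact test). These windows held 79 ChIP and 24 input tags upstream and 33 and 3 downstream. By ChIP tags alone the sides changed order, with more downstream from 1 to 5 kb but more upstream from 1 to 3.5 kb. The odds ratio moved little, since input was also lower downstream, and it does not show more ChIP tags downstream without the second cluster. With 3 input tags downstream, the test cannot tell whether the difference in ratio depends on that cluster. In the RefSeq gene order of GRCm38.p6, used here for names alone, *Iffo1* and *Nop2* follow on the downstream side of *Gapdh*. Which gene the cluster belongs to was not determined.

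Between the 2 clusters at *Gapdh*, input tags were missing. From 1.5 to 3.5 kb downstream, a stretch chosen after its values were seen, the 8 bins held 19 ChIP tags and 0 input tags, which allows up to 3 input tags. The exact 95% interval of the ratio has a lower bound of 4.54 and no upper bound. The mean 2 kb window of the genome held 7.71 input tags and 7.93 ChIP tags, and 6.11% of such windows held 0 input tags. ChIP tags in the stretch were thus above their genome mean while input tags were absent. In the same stretch *Actb* had 17 ChIP and 15 input tags, *Eef1a1* 9 and 9, and *Hsp90ab1* 18 and 11, with ratios of 1.1, 0.972 and 1.59 whose exact intervals all included 1. *Gapdh* is known for its many processed pseudogenes, copies of its mRNA sequence elsewhere in the genome. How reads that match several places were treated is not given in the sources used here, and their part in the missing input tags was not tested.

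The 50 kb flanks on each side, from 5 to 55 kb, served as the background of each gene. The flanks of *Actb* held 1484 ChIP and 663 input tags, a ratio of 2.18, those of *Gapdh* 1360 and 671 (1.97), those of *Eef1a1* 816 and 549 (1.44), and those of *Hsp90ab1* 1935 and 674 (2.79). Input ranged from 549 to 674 tags while ChIP ranged from 816 to 1935. Against its own flanks, the window within 1 kb of the start was enriched in ChIP over input at each gene. The odds ratio was 5.04 at *Actb* (exact interval 2.32 to 13.0, adjusted p = 1.21e-06), 10.1 at *Gapdh* (3.78 to 38.1, adjusted p = 1.55e-09), 5.31 at *Eef1a1* (2.71 to 11.6, adjusted p = 1.40e-08) and 4.08 at *Hsp90ab1* (1.88 to 10.5, adjusted p = 3.22e-05), by two-sided Fisher exact tests. The odds ratio does not depend on how input is scaled. It does depend on what the flanks hold, and with called clusters left out of the flanks it was 6.48, 14.8, 6.64 and 6.44 in the same order, so that *Hsp90ab1* moved by over 1.5 times. Clusters were called for their high ChIP counts, so that a rise was built into leaving them out and adds no support for the enrichment.

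**Figure D4:**
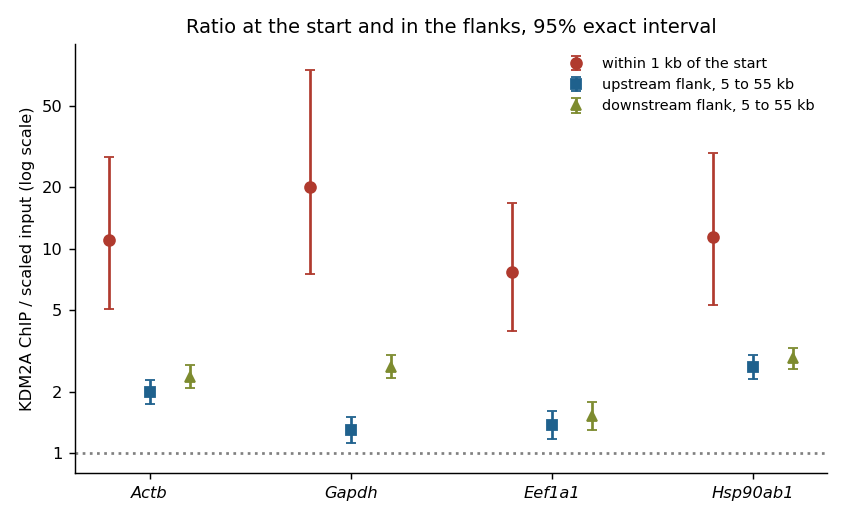
Ratio of KDM2A ChIP to scaled input (log axis) within 1 kb of the start (circles), in the upstream flank (squares) and in the downstream flank (triangles) of the 4 genes, with 95% exact Clopper-Pearson intervals. The start windows lie at 7.68 to 19.9, above both flanks of their gene, which lie at 1.30 to 2.91.

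The flanks were not free of KDM2A. They held 14 clusters at *Actb*, 15 at *Gapdh*, 5 at *Eef1a1* and 16 at *Hsp90ab1*, not counting clusters that reach within 5 kb of the start. The cluster at the start was not the highest of its surroundings at any of the 4 genes. In the flanks of *Actb* 1 cluster was higher, with 34 tags against 29. At *Gapdh* and at *Eef1a1* 3 were higher, reaching 29 and 26 tags, and at *Hsp90ab1* 6 were higher, reaching 36 tags. By ChIP tags in the whole cluster, 2 flanking clusters exceeded that at *Actb*, 2 that at *Hsp90ab1*, and 0 those at *Gapdh* and *Eef1a1*. *Eef1a1* stood alone, its nearest flanking summit being 33.4 kb away, against 7.52 kb for *Actb*, 7.53 kb for *Gapdh* and 7.93 kb for *Hsp90ab1*. In the RefSeq order its neighbours are *Slc17a5* upstream and *Mto1* downstream, those of *Actb* are *Fscn1* and *Fbxl18*, and those of *Hsp90ab1* are *Slc29a1* and *Slc35b2*.

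**Figure D5:**
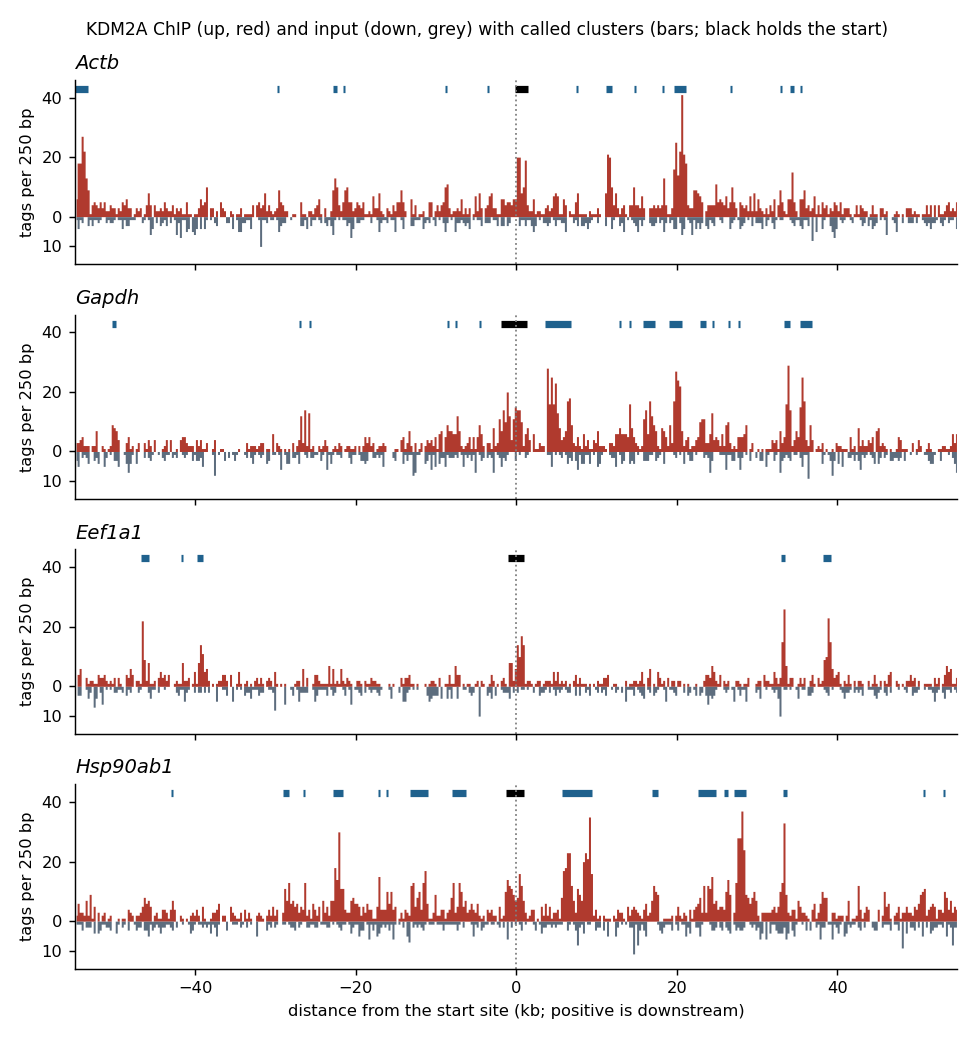
KDM2A ChIP tags per 250 bp (red, upward) and input tags (grey, downward) within 55 kb of the start sites, against distance in kb (positive is downstream). Bars at the top mark called clusters, black where they hold the start; Hsp90ab1 and Gapdh lie among many clusters, with 16 and 15 in their flanks, and Eef1a1 among 5.

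Intervals of the upstream and downstream flank were apart only at *Gapdh*, of the 4 genes. There the ratio was 1.30 upstream (1.13 to 1.5) and 2.64 downstream (2.33 to 3). The downstream flank includes the end of the second cluster and further whole clusters, the largest with 103 ChIP tags. In the upstream flank the largest cluster held 22 ChIP tags. The upstream and downstream ratios were 1.99 (1.74 to 2.28) and 2.36 (2.08 to 2.69) at *Actb*, 1.37 (1.18 to 1.61) and 1.52 (1.30 to 1.78) at *Eef1a1*, and 2.64 (2.31 to 3.03) and 2.91 (2.59 to 3.28) at *Hsp90ab1*, with overlapping intervals. The difference between flanks was not tested.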

How the data were processed

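For both libraries the authors deposited raw counts, each giving the number of aligned tags on a strand at a position, with no scaling. The submitters' processing notes name Bowtie and mm9. The version, the settings and the treatment of reads with several placements are not given in the sources used here. From these counts, plus-strand tags were moved by +50 bp and minus-strand tags by -50 bp. The distance between strands peaked at 108 bp for ChIP and 87 bp for input on the 4 chromosomes. How positions of minus-strand tags were defined is not given. Tags were counted by distance from each start and, for calls, in 250 bp bins of all 10 kb blocks holding a tag. Benjamini-Hochberg adjustment of calls was over all bins. The bin test was also run on simulated Poisson counts. These held no copies of tags and no local variation, unlike the libraries here, so that run does not give the rate of false calls in these data. No model of replicate spread could be fitted. Genes, windows and lists were chosen with earlier results of these data known. All 4 genes are named. A planned list of other reference genes was not used, since no mm9 annotation was used here. Intervals are at 95%. Alternatives are given in the closing section. Python 3.11.15, numpy 2.4.6, pandas 2.3.3, scipy 1.17.1 and matplotlib 3.10.9 were used.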

Additional observations from a re-analysis of the deposited data

How the results depend on the processing

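With 4 to 10 input tags per start window, depth limits the comparison of the genes with each other. No paired analysis was possible because ChIP and input had 1 library each.

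Over the alternatives of counting, movement, scaling and window, the ratio at the start site stayed above 1 and past the test, from 5.14 to 16.8 at *Actb*, 8.15 to 24.9 at *Gapdh*, 4.91 to 9.60 at *Eef1a1* and 7.23 to 19.4 at *Hsp90ab1*. So did the odds ratio against flanks, at 2.36 to 7.74, 4.14 to 14.8, 3.40 to 6.64 and 2.59 to 6.96. For both measures the lowest value of each gene came from windows within 2 kb. The highest came from windows within 500 bp at *Actb* and *Hsp90ab1*. At *Gapdh* and *Eef1a1* the highest ratio came from scaling input by the bins outside clusters. Their highest odds ratio came from flanks without called clusters, where a rise was built in. No pair passed the test under any alternative run for pairs.

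Of the 106519 bins called for ChIP, an adjusted p limit of 0.0001 left 62554, and the genome mean alone gave 173947. Of the 14736 called for input, counting copies once left 328, 500 bp bins gave 7365, the limit of 0.0001 gave 1260 and the genome mean alone 69626. Within 5 kb, 500 bp bins raised the called length at *Actb* from 1.5 to 3 kb, and the limit of 0.0001 lowered that at *Hsp90ab1* from 2.25 to 1.25 kb. Among alternatives chosen after the data were seen, windows of 1 to 3.5 kb gave an upstream over downstream odds ratio of 0.301 at *Gapdh*, against 0.255 (adjusted p = 0.216 and 0.000923, Fisher exact test). ChIP tags alone gave an upstream to downstream ratio of 0.362 at *Actb* and 0.436 at *Eef1a1*, and with copies of a tag counted once 0.382 and 0.490 (adjusted p = 0.000483 and 0.00925, exact binomial test). The other 122 of 135 values kept their side of the threshold or stayed within 1.5 times. Upstream against downstream within 500 bp of *Actb* gave no value, since the upstream side held no input tag. The cause of these changes was not tested.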

Other observations

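The single bin called for input over ChIP near the 4 genes lay 4.5 to 4.75 kb upstream of *Eef1a1*, from 78334001 to 78334250 on chromosome 9, with 10 input and 0 ChIP tags (adjusted p = 0.000327, one-sided exact Poisson test). It held 8 input tags when each position and strand was counted once, and was then not called.

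Within 1 kb of the starts, 3.8% of ChIP tags at *Actb*, 7.32% at *Gapdh*, 7.59% at *Eef1a1* and 6.10% at *Hsp90ab1* were copies beyond the first at a position and strand, near the 4.75% of the whole ChIP library.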
